A study of Homo sapiens with 25 samples.

Results

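The HOX cluster genes are the protein-coding genes whose symbol is HOXA, HOXB, HOXC or HOXD followed by a number. They number 39 of the 19970 protein-coding genes that GENCODE release 44 places on chromosomes 1 to 22 and X. On genome build hg38 they form 4 clusters. The HOXA cluster holds 11 members on chromosome 7 (27092993 to 27200091, minus strand, 107.1 kb). The HOXB cluster holds 10 members on chromosome 17 (48528526 to 48728750, minus strand, 200.2 kb). The HOXC cluster holds 9 members on chromosome 12 (53938831 to 54056030, plus strand, 117.2 kb), and the HOXD cluster holds 9 members on chromosome 2 (176092721 to 176190907, plus strand, 98.2 kb). Each member was scored for H3K4me3 and H3K27ac peaks at its promoter, taken as 1 kb on either side of the start of its canonical transcript, and for PML, lamin B1 and H3K9me3 domains at that start.

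HOX genes encode homeodomain transcription factors that give cells their position along the head-to-tail axis of the embryo. Genes of low paralogue number, at one end of a cluster, act in the front of the body, and genes of high number, at the other end, act further back. Their promoters are classical targets of the opposing Polycomb and Trithorax groups: Polycomb complexes place H3K27me3 and keep a cluster silent, while MLL-type complexes place H3K4me3 at active promoters. H3K27ac marks active promoters and enhancers, whereas lamin B1 and H3K9me3 mark chromatin of the nuclear edge and heterochromatin. PML is the scaffold protein of PML nuclear bodies.

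The study profiled MDA-MB-231, an established human triple-negative breast cancer line, by chromatin immunoprecipitation and sequencing. PML knockdown cells carried a lentiviral short hairpin RNA against PML, and the labels do not say what the control cells received. There were 25 libraries. Lamin B1 (LMNB1), H3K9me3, H3K27me3, H3K4me3 and H3K27ac had 2 libraries each in PML knockdown cells and 2 in control cells, there were 3 PML libraries whose labels name no condition, and each condition had 1 input. All libraries share 1 cell line, and the labels name neither the hairpin sequence nor separate clones. H3K4me3 and H3K27ac came as 1 peak list per condition over replicates 1 and 2, and PML, LMNB1 and H3K9me3 as 1 domain list each per group, so no difference below has a replicate check and none was tested. Separately called lists have no common scale for height or width. A promoter without a peak is one below the authors' threshold, not one shown to lack the mark. The 4 H3K27me3 libraries were not analysed here, so the Polycomb mark itself is missing from what follows.

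The H3K4me3 lists held 27760 peaks in PML knockdown and 22211 in control, and the H3K27ac lists held 43615 and 42320. Marker genes of the labelled line were checked first. Of 8 mesenchymal and basal genes chosen as its markers, 7 carried both marks in both conditions (VIM, FN1, CD44, AXL, EGFR, CAV1 and FOSL1), while SPARC carried none. Of 8 luminal genes, 5 had an H3K4me3 promoter peak in PML knockdown and 4 in control, and 2 had an H3K27ac promoter peak in PML knockdown and 1 in control. ESR1, FOXA1, KRT19 and ERBB3 had H3K4me3 in both conditions and PGR in PML knockdown. GATA3 and CDH1 had a peak in none of the 4 lists. The remaining luminal gene had H3K27ac in both conditions and H3K4me3 in neither. Of 6 stromal and immune genes, 0 had a peak in any list. Peak lists do not measure PML itself, so they give no check of the knockdown.

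Promoter sequences of 4 members are given here first, because HOX promoters are often rich in CpG, a feature that goes with H3K4me3 elsewhere in the genome. The stretch shown is 200 bases directly upstream of the canonical start, written 5′ to 3′ on the strand of the gene, on hg38, with CpG in capitals. Shown are HOXA13, HOXD1 and HOXD4, which have a peak in at least 1 list, and HOXA9 as a CpG-dense member with a peak in none. They lie at chr7:27200092-27200291 (minus strand, HOXA13), chr2:176188468-176188667 (plus strand, HOXD1), chr2:176151350-176151549 (plus strand, HOXD4) and chr7:27165538-27165737 (minus strand, HOXA9).
HOXA13: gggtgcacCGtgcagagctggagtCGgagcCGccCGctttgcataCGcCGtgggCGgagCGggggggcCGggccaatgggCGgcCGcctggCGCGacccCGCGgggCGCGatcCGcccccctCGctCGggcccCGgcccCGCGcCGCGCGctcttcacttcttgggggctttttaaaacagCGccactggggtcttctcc
HOXD1: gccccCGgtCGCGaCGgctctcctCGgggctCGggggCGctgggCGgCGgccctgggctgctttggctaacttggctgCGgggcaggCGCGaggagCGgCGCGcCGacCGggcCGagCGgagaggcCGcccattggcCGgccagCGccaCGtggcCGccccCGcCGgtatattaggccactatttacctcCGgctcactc
HOXD4: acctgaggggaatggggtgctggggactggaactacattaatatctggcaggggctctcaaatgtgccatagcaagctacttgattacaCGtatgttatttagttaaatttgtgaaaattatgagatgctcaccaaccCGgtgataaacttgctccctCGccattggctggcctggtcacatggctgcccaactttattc
HOXA9: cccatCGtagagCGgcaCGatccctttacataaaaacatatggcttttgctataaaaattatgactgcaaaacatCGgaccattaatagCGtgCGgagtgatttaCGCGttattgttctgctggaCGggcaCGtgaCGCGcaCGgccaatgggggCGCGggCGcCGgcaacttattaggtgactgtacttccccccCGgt
In these stretches HOXA13 and HOXD1 have 27 CpG each, HOXA9 has 18 and HOXD4 has 3. For the members shown with a promoter peak, the stretches thus run from the CpG-poor HOXD4 to the CpG-dense HOXA13 and HOXD1. That of HOXA9, with no peak, lies between them. A stretch shown is not always the sequence under a peak. At HOXD4 the control H3K4me3 peak began 952 bp downstream of the start, outside the stretch. The H3K27ac peaks there began 782 bp downstream in PML knockdown and 792 bp in control.

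Most HOX promoters had neither mark in either condition. H3K4me3 peaks lay at 7 of 39 HOX promoters in PML knockdown (17.9%) and at 6 of 39 in control (15.4%), against 63.7% and 61.8% of all protein-coding promoters. H3K27ac peaks lay at 5 of 39 in PML knockdown (12.8%) and 6 of 39 in control (15.4%), against 53.7% and 50.8% of all. Both marks together lay at 5 of 39 in PML knockdown and 5 of 39 in control, against 52.7% and 49.7% of all. HOXB6, HOXB9, HOXD1 and HOXD4 were marked in all 4 lists, 10.3% of members against 49.1% of all promoters. With promoters of 500 bp on either side, HOXD4 stayed marked in the PML knockdown H3K4me3 list alone. No list marked 32 of 39 members (82.1%, against 35.2% of all). These 32 were 10 of the 11 HOXA genes, 7 of the 10 HOXB genes, 8 of the 9 HOXC genes and 7 of the 9 HOXD genes.

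**Figure D1:**
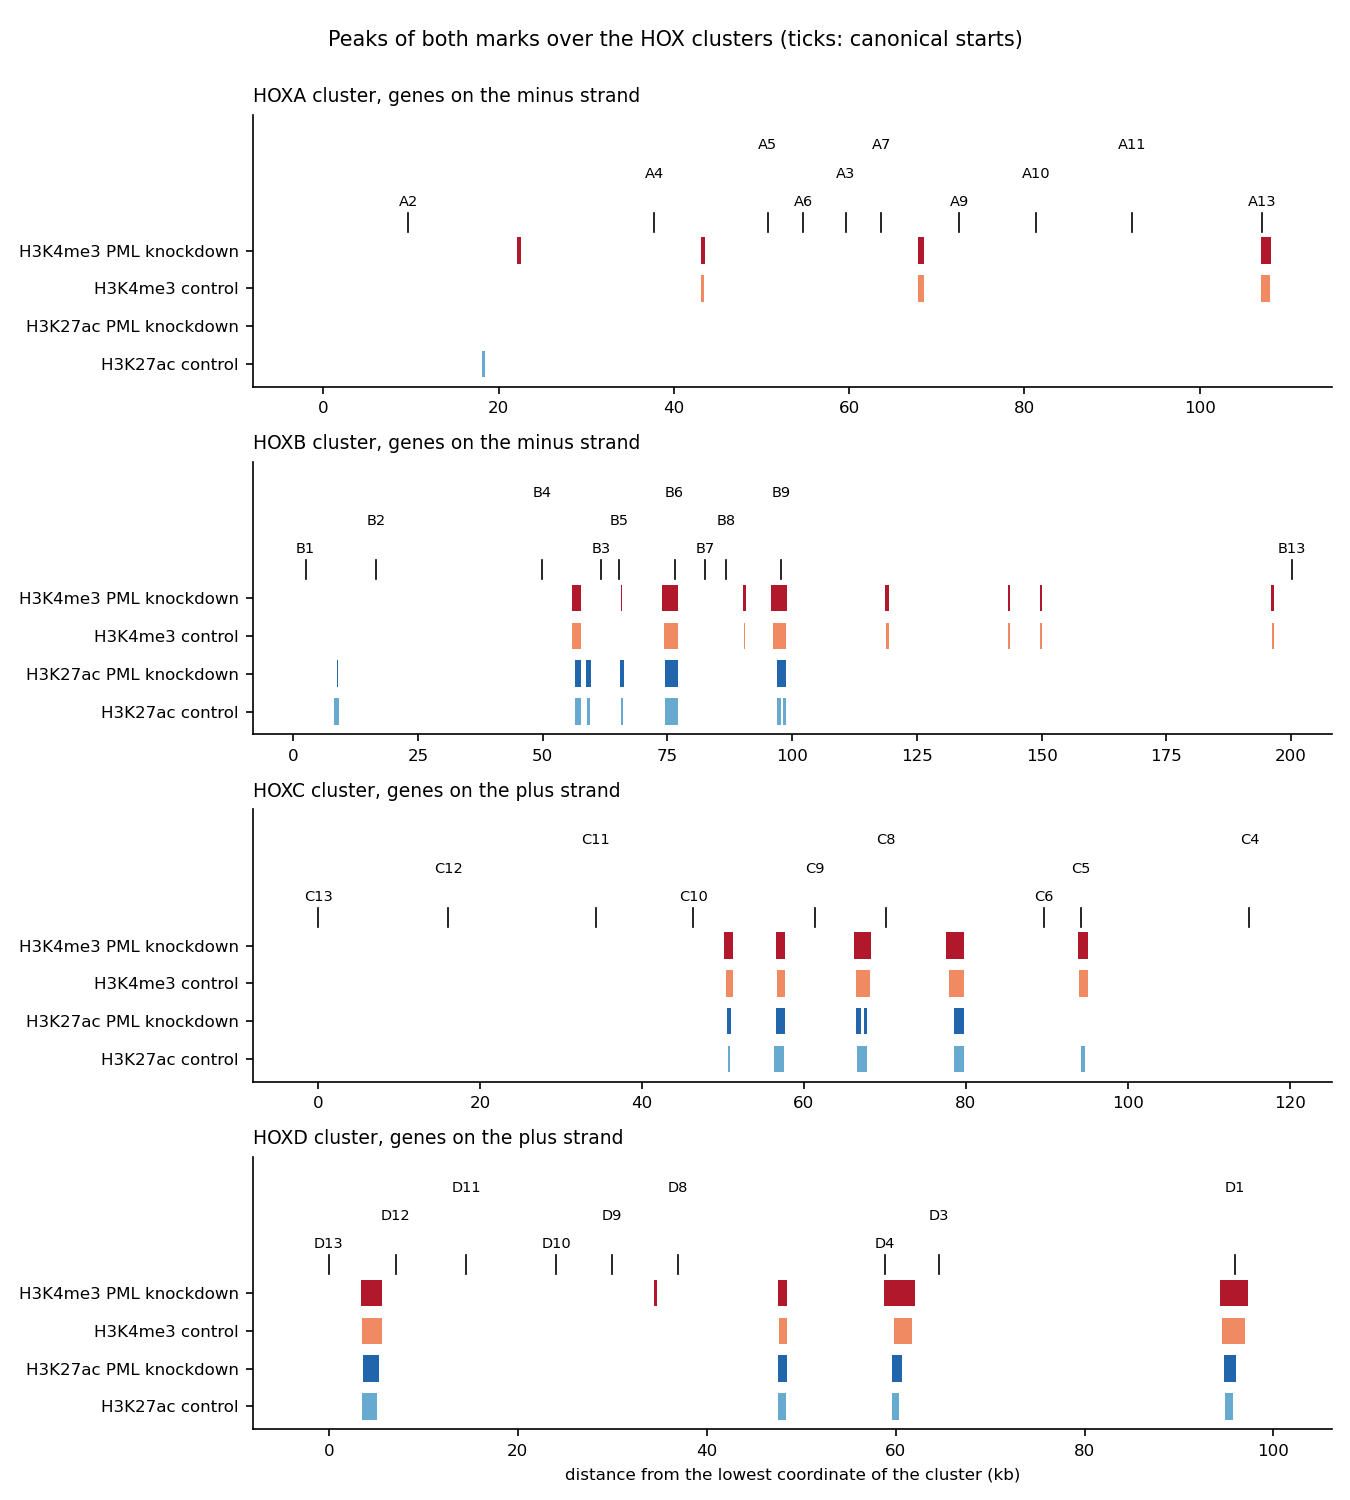
Peaks along the 4 HOX clusters. The x axis is the distance in kb from the lower-coordinate end of each cluster, ticks at the top of each panel are canonical starts of members, and the bars below are peaks of the 4 lists, PML knockdown above control for each mark. The HOXA cluster holds few and narrow peaks apart from its HOXA13 end, and the other 3 clusters hold separate peaks with gaps between them.

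By paralogue number, the marked genes belonged to group 1 (HOXD1), group 4 (HOXD4), group 5 (HOXB5 and HOXC5), group 6 (HOXB6), group 9 (HOXB9) and group 13 (HOXA13). Groups 2, 3, 7, 8, 10, 11 and 12 had no marked member. Group 5 was the one group with more than 1 marked member. In every cluster the marked genes were separated by unmarked ones or stood alone, apart from the neighbours HOXB5 and HOXB6. No run of adjacent marked promoters began at either end of a cluster.

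The HOXA cluster had 1 marked promoter, that of HOXA13, the gene at its posterior end, which acts in limb and urogenital development. Its H3K4me3 peak was 1138 bp wide with a fold enrichment of 12.35 in PML knockdown, and 1033 bp wide with a fold enrichment of 5.85 in control. Fold enrichment is the authors' value for a peak over its background. Both peaks covered the start of HOXA13, and a start of HOTTIP, a non-coding RNA transcribed from the same end of the cluster, lay within 1 kb of them. Neither H3K27ac list had a peak there, a pattern of H3K4me3 in both lists with H3K27ac in neither that 8.84% of all promoters shared. The other 10 HOXA promoters had no peak of any list. Over these 10 genes the median distance from the start to the nearest H3K4me3 peak was 9754.5 bp in PML knockdown and 9833.5 bp in control. For H3K27ac it was 102412.5 bp in PML knockdown and 38771.5 bp in control. The H3K27ac lists had 0 peaks within the HOXA span in PML knockdown and 1 in control. That 1 control peak was the nearest for all 10 genes, so the H3K27ac medians differ through 1 peak. It was 282 bp wide with a fold enrichment of 3.49 and a −log10 q of 4.29. At a −log10 q of at least 5 it dropped out.

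In the HOXB cluster the promoters of HOXB6 and HOXB9 carried the widest and tallest H3K4me3 peaks of the cluster in both lists. The H3K4me3 peak at HOXB6, a gene of trunk identity, was 3271 bp wide with a fold enrichment of 46.65 in PML knockdown, and 2806 bp wide with 15.50 in control. Its H3K27ac peak was 2751 bp wide with a fold enrichment of 22.89 in PML knockdown, and 2566 bp wide with 17.83 in control. All 4 peaks covered the start of HOXB6, and starts of HOXB-AS3 and of a longer HOXB3 transcript lay within 1 kb of them, so they cannot be given to 1 gene. HOXB9, which in mice acts in thoracic patterning and the mammary gland, had an H3K4me3 peak of 3119 bp and a fold enrichment of 48.90 in PML knockdown, and 2761 bp and 14.68 in control. Its H3K27ac mark was 1 peak of 1780 bp across the start in PML knockdown (fold enrichment 7.14), but 2 peaks on either side of the start in control (838 bp and 518 bp, fold enrichments 3.17 and 2.08).

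HOXB5 was the 1 member with a promoter H3K4me3 peak in the PML knockdown list only, 2.56% of members against 1.79% of all promoters. The peak was 380 bp wide and lay 364 to 743 bp upstream of the start, with a fold enrichment of 3.70 and a −log10 q of 4.99. At a −log10 q of at least 5, or with H3K4me3 lists of equal size, the number of such members was 0. H3K27ac marked HOXB5 in both conditions, at 782 bp and a fold enrichment of 5.69 in PML knockdown, and at 566 bp and 2.94 in control. The 380 bp peak in PML knockdown was the narrowest H3K4me3 peak at a HOX promoter and the HOXB6 peak the widest. The 7 unmarked HOXB members had their nearest H3K4me3 peak 3470 to 46420 bp away in PML knockdown and 3568 to 53300 bp away in control. For HOXB13, the prostate-associated gene that stands apart from its cluster, that peak lay 3577 bp away in PML knockdown and 3616 bp away in control. It overlapped an exon of HOXB13 and lay within 1 kb of the start of MIR3185. In PML knockdown a start of PRAC2 also lay within 1 kb.

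HOXC5 was the 1 marked HOXC promoter and the 1 member with a promoter H3K27ac peak in the control list only, 2.56% of members against 0.666% of all promoters. That peak was 531 bp wide with a fold enrichment of 3.54 and a −log10 q of 3.46. At a −log10 q of at least 5 it dropped out, and the count was 0. The HOXC5 H3K4me3 peak was in both lists, at 1151 bp and a fold enrichment of 4.04 in PML knockdown, and at 1032 bp and 8.88 in control. It thus had the lower fold enrichment in PML knockdown, unlike most promoters. MIR615, a microRNA gene inside HOXC5, has its start within 1 kb of the same peak. No HOX promoter had an H3K4me3 peak in the control list only (0 of 39, against 0.0951% of all), and none had an H3K27ac peak in the PML knockdown list only (0 of 39, against 3.24%).

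In the HOXD cluster, HOXD1 and HOXD4, genes of the anterior side, were marked in all 4 lists. The H3K4me3 peak at HOXD1 was 2887 bp wide with a fold enrichment of 36.58 in PML knockdown, and 2452 bp wide with 32.40 in control, the tallest control peak at a HOX promoter. Its H3K27ac peak was 1260 bp wide with a fold enrichment of 4.07 in PML knockdown, and 852 bp wide with 4.93 in control. A start of HAGLR, a non-coding RNA read in the opposite direction, lay within 1 kb of these peaks. At HOXD4 the H3K4me3 peak ran from 78 bp upstream to 3184 bp downstream of the start in PML knockdown (3263 bp, fold enrichment 38.67). In control it began 952 bp downstream and ended 2884 bp downstream (1933 bp, fold enrichment 24.38). The HOXD4 H3K27ac peak lay 782 to 1888 bp downstream with a fold enrichment of 19.96 in PML knockdown, and 792 to 1543 bp downstream with 10.50 in control. At HOXD4, the peaks thus lay mostly downstream of the start, which was itself covered in 1 of 4 lists. The widest H3K4me3 peak covered the start of 6 of 7 marked members in PML knockdown and 5 of 6 in control. The widest H3K27ac peak covered that of 3 of 5 in PML knockdown and 1 of 6 in control.

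**Figure D2:**
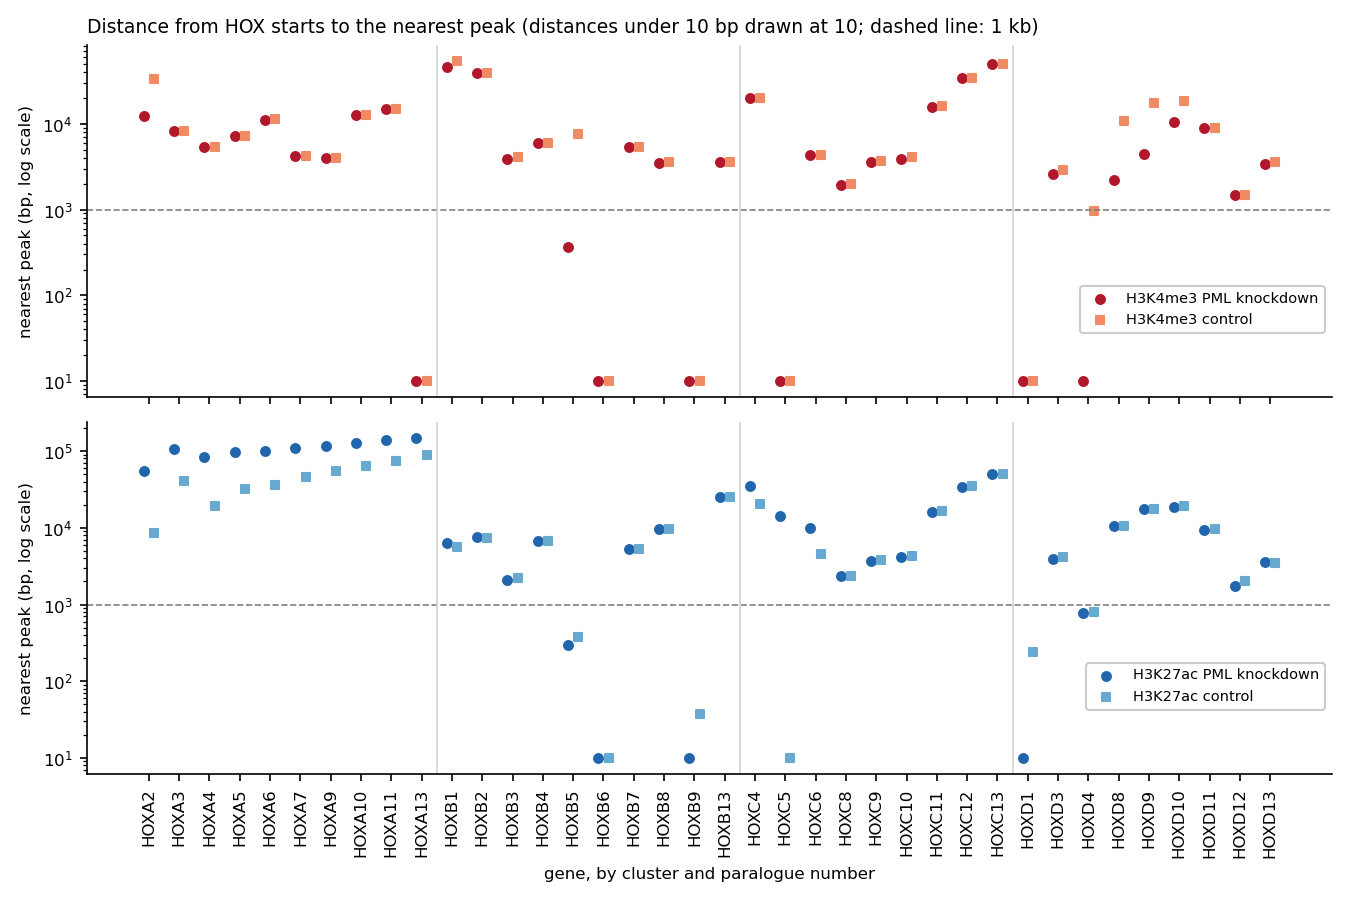
Distance from HOX starts to the nearest peak of each list, in bp on a log scale, with members by cluster and paralogue number, and PML knockdown left of control. Members lie at or under 1 kb in the lists that mark them, and the unmarked members drawn lie above 1 kb in every list, with the H3K27ac distances of the HOXA members reaching furthest.

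Where a promoter was marked in both conditions, the fold enrichments could be set side by side. The PML knockdown value was the higher at 5 of 6 HOX promoters for H3K4me3 (83.3%), against 95.1% of 12328 promoters, and at 4 of 5 for H3K27ac (80.0%), against 81.0% of 10009. The median ratio of PML knockdown to control was 1.85 over the 6 HOX promoters and 1.91 over all for H3K4me3, and 1.90 over 5 and 1.38 over all for H3K27ac. The lists were thus shifted as a whole, and each member is read against that shift. HOXC5 stood at the low end for H3K4me3, with a ratio of 0.46 at the 0.2 percentile of all shared promoters. HOXD1 was low in both marks, at 1.13 (percentile 8.1) for H3K4me3 and 0.83 (percentile 9.1) for H3K27ac. HOXB9 was on the high side in both, at 3.33 (percentile 89.6) and 2.25 (percentile 86.2). HOXB6 had ratios of 3.01 (percentile 85.4) and 1.28 (percentile 42.6), and HOXD4 had 1.59 (percentile 30.7) and 1.90 (percentile 76.5). HOXA13 had a ratio of 2.11 for H3K4me3 (percentile 59.8), and HOXB5 had 1.94 for H3K27ac (percentile 78.0). In width, HOXD4 had the largest H3K4me3 ratio of the members at 1.69 (percentile 87.2), and HOXB9 the largest H3K27ac ratio at 2.12 (percentile 91.4).

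**Figure D3:**
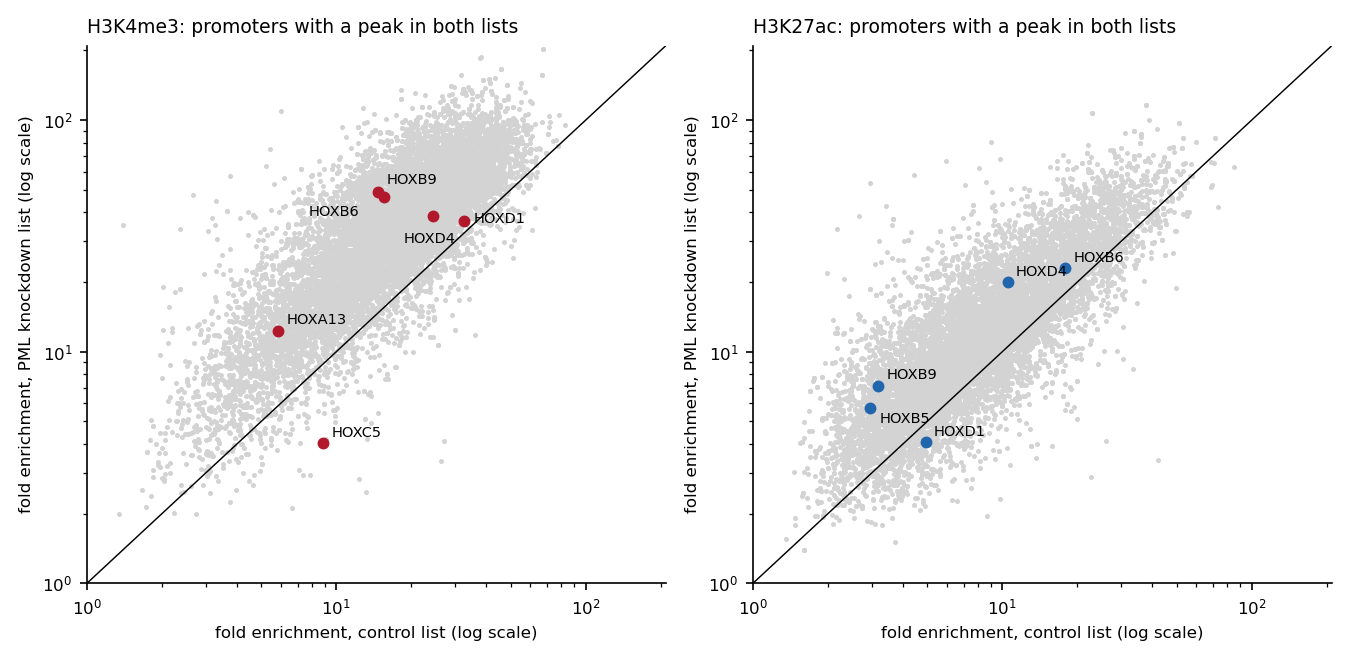
Fold enrichment of promoter peaks in the PML knockdown list (y axis) against the control list (x axis), both on log scales, for H3K4me3 (left) and H3K27ac (right). Grey points are all promoters with a peak in both lists, coloured points are HOX members, and the line marks equal values; HOXC5 for H3K4me3 and HOXD1 for H3K27ac are the members below the line.

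Among marked promoters, HOX peaks were not uniformly narrow. The median H3K4me3 width was 2887 bp over 7 HOX promoters in PML knockdown, against 2220 bp over all marked promoters, and 2192.5 bp over 6 in control, against 1862 bp. For H3K27ac it was 1260 bp over 5 HOX promoters in PML knockdown, against 1473 bp, and 795 bp over 6 in control, against 1292 bp. The median fold enrichment for H3K4me3 was 36.58 at HOX and 34.8 at all marked promoters in PML knockdown, and 15.09 at HOX and 17.96 at all in control. For H3K27ac it was 7.14 at HOX and 10.83 at all in PML knockdown, and 4.24 at HOX and 7.96 at all in control. HOX medians thus lay above the medians of all promoters for H3K4me3 width and below them for both H3K27ac measures.

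Most peaks inside the cluster spans were not at a canonical promoter. The spans held 23 H3K4me3 peaks in PML knockdown and 20 in control, of which 7 and 6 lay at a member promoter. They held 15 H3K27ac peaks in PML knockdown and 17 in control, of which 5 and 7 lay at a member promoter. The share of all peaks at a canonical promoter was not counted, so this is not read as particular to the clusters. H3K4me3 peaks overlapped an H3K27ac peak of the same condition at 12 of 23 in PML knockdown (77.4% of the whole list) and 12 of 20 in control (72.8% of the whole list). H3K27ac peaks overlapped an H3K4me3 peak at 13 of 15 in PML knockdown (50.9% of the whole list) and 13 of 17 in control (40.6% of the whole list). Over 1 kb from any annotated transcript start lay 10 of the 23 H3K4me3 peaks in PML knockdown (43.5%, against 37.7% of that whole list) and 9 of the 20 in control (45.0%, against 24.2%). For H3K27ac these were 7 of 15 in PML knockdown (46.7%, against 61.0%) and 7 of 17 in control (41.2%, against 60.4%). In PML knockdown, H3K4me3 peaks covered 9.74% of the HOXD span, 6.49% of HOXC, 5.66% of HOXB and 1.5% of HOXA, and in control 7.34%, 5.52%, 4.80% and 0.988% of the same spans. H3K27ac peaks covered 5.17% of HOXD, 3.37% of HOXC, 3.85% of HOXB and 0% of HOXA in PML knockdown, and 4.16%, 3.90%, 3.77% and 0.263% of them in control. HOXD was thus the most covered and HOXA the least covered cluster for both marks.

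At 4 sites over 1 kb from any annotated start, both marks had peaks in both conditions, some as tall as those of the marked promoters. Between HOXD13 and HOXD12, at 176096082 to 176098297 on chromosome 2, the H3K4me3 peak was 2216 bp wide with a fold enrichment of 46.48 in PML knockdown, and 2040 bp wide with 15.15 in control. It ended 1498 bp short of the HOXD12 start in PML knockdown and 1484 bp short in control. Its H3K27ac fold enrichment was 22.96 in PML knockdown and 14.57 in control. Inside the HOXD3 gene, at 176140316 to 176141213, H3K4me3 reached 36.13 in PML knockdown and 7.98 in control, a ratio of 4.52, the largest of any H3K4me3 pair in the clusters. H3K27ac there was 18.43 in PML knockdown and 6.74 in control. The H3K4me3 ratio of 4.52 stood at percentile 95.3 of all overlapping H3K4me3 peak pairs of the lists. Inside the HOXB3 gene, at 48584336 to 48586223 on chromosome 17, H3K4me3 was 30.51 in PML knockdown and 11.12 in control, and H3K27ac was 18.51 in PML knockdown and 7.72 in control. Upstream of HOXC8, at 54005042 to 54007059 on chromosome 12, H3K4me3 was 16.65 in PML knockdown and 8.40 in control. H3K27ac formed 2 peaks there in PML knockdown (4.73 and 4.82) and 1 in control (2.44).

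For 3 of these sites, the 200 bases around the H3K4me3 summit in PML knockdown are shown on the plus strand of hg38, with CpG in capitals, since no promoter window holds them. They lie at chr2:176097479-176097678, chr2:176140717-176140916 and chr12:54005656-54005855.
HOXD13 to HOXD12 interval: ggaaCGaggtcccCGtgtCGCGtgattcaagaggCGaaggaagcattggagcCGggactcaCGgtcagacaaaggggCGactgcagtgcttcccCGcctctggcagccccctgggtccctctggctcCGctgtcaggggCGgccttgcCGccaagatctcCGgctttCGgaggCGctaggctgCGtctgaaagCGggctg
Inside HOXD3: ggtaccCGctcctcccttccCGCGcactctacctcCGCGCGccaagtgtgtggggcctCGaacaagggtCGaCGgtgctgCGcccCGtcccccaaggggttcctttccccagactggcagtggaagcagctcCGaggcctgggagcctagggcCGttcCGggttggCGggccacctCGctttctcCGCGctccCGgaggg
Upstream of HOXC8: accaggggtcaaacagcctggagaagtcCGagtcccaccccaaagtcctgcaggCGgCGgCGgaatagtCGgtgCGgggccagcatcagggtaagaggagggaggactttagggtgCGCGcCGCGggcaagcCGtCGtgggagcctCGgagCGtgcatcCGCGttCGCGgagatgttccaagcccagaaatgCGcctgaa
They hold 17, 19 and 19 CpG in the order shown.

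Other cluster peaks lay within 1 kb of starts of non-canonical transcripts of members. In HOXC, an H3K4me3 peak near a start of a long HOXC6 transcript (53989007 to 53990096 on chromosome 12) had a fold enrichment of 28.05 in PML knockdown and 13.96 in control. One at starts of HOXC6, HOXC9 and HOXC-AS2 (53995437 to 53996532) had 12.48 in PML knockdown and 7.34 in control. One at starts of HOXC4 and HOXC6 transcripts (54016382 to 54018635) had 17.14 in PML knockdown and 17.80 in control. All 3 had an H3K27ac peak in both conditions. Counting a member as marked when any of its transcript starts was marked raised the H3K4me3 counts to 11 in PML knockdown and 10 in control, by adding HOXB3, HOXC4, HOXC6 and HOXC9. The H3K27ac counts became 9 in PML knockdown and 10 in control. The share of all protein-coding genes under this rule was not counted, so these counts cannot be set against a background. Which start these genes use cannot be read from peak lists.

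Few cluster peaks were in 1 condition only. For H3K4me3, 3 of 23 PML knockdown peaks overlapped no control peak, against 26.8% of the whole list, and 0 of 20 control peaks overlapped no PML knockdown peak, against 1.17%. The 3 were the HOXB5 peak, a 360 bp peak in the HOXA3 gene near HOXA-AS2 (27115139 to 27115498 on chromosome 7, fold enrichment 4.73) and a 303 bp peak 2210 bp from the HOXD8 start (176127193 to 176127495 on chromosome 2, fold enrichment 4.44). For H3K27ac, 0 of 15 PML knockdown peaks overlapped no control peak, against 15.5%, and 2 of 17 control peaks overlapped no PML knockdown peak, against 8.41%. These 2 were the HOXC5 peak and a 282 bp peak in the HOXA3 gene (27111126 to 27111407 on chromosome 7, fold enrichment 3.49). All 5 had fold enrichments under 5, among the lower peaks of the clusters. Each control peak in the spans that overlapped a PML knockdown peak was also paired with it. Of 20 H3K4me3 pairs, 18 had the higher fold enrichment in PML knockdown (90%, against 94.0% of 21951 pairs), with a median ratio of 1.84 against 1.85. The exceptions were HOXC5 and the HOXC4 and HOXC6 start with 17.14 against 17.80. Of 15 H3K27ac pairs, 13 were higher in PML knockdown (86.7%, against 74.8% of 38761 pairs), with a median ratio of 1.58 against 1.27. The exceptions were HOXD1 and a peak 6258 bp from the HOXB1 start (3.02 in PML knockdown, 4.19 in control).

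HOX promoters were CpG-rich about as often as other promoters but were marked less often. In the 300 bases from 250 before to 50 after the start, 27 of 39 HOX promoters were CpG-rich (69.2%), against 65.7% of all. CpG-rich means at least 50% G and C and a CpG count of at least 0.6 of that expected from base composition, a split made after the peak counts were known. HOXA9, at 48% G and C with 1.27 of the expected CpG, fell outside that class. H3K4me3 marked 3 of 27 CpG-rich HOX promoters in PML knockdown and 3 of 27 in control, against 85.0% and 83.1% of all CpG-rich promoters. It marked 4 of 12 other HOX promoters in PML knockdown and 3 of 12 in control, against 23% and 21.1%. H3K27ac marked 2 of 27 CpG-rich HOX promoters in each condition, against 71.1% of all in PML knockdown and 67.6% in control. It marked 3 of 12 others in PML knockdown and 4 of 12 in control, against 20.3% and 18.7%. The gap to all promoters thus lay in the CpG-rich class, and it was described and not tested. The class describes the 300 bases at the start and not the sequence under a peak. HOXB5 peaks lay at least 295 bp upstream of the start, outside those bases. HOXD4 peaks began 782 to 952 bp downstream in every list but PML knockdown H3K4me3. The median ratio of observed to expected CpG was 0.84 at the 7 marked members and 0.80 at the 32 unmarked ones.

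**Figure D4:**
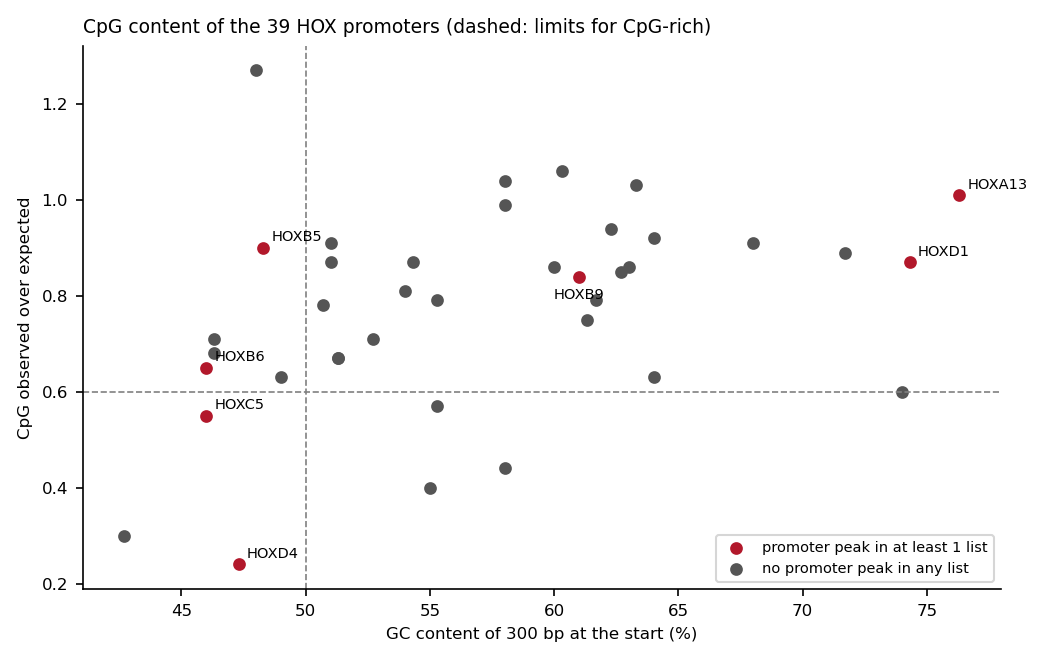
Ratio of observed to expected CpG (y axis) against percent G and C (x axis) in the 300 bases around each HOX start. Red points are the members with a promoter peak in at least 1 list and grey points those with none; the dashed lines are the limits for CpG-rich, and 24 unmarked members lie on or above both.

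Short motifs were searched on both strands of the same windows. The homeodomain core TAAT was in 30 of 39 HOX promoters (76.9%) and in 40.3% of all. TGATNNAT, bound by HOX with PBX partners, was in 10 of 39 (25.6%) and in 4.77% of all. The CCAAT box was in 29 of 39 (74.4%) and in 36.0% of all, and TATAAA in 7 of 39 (17.9%) and in 9.73% of all. The AP-1 letters TGANTCA were in 2 of 39 (5.13%) and in 5.44% of all. The consensus direct repeat of the retinoic acid receptor (DR5) was in 0 of 39 and in 0.00501% of all. TAAT, CCAAT and TGATNNAT can share bases. The median G and C content was 55.3% at HOX promoters and 63.7% at all, and its part in these shares was not tested. TAAT was in 5 of the 7 marked members (71.4%) and in 25 of the 32 unmarked ones (78.1%).

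No HOX gene started in a domain. The PML, LMNB1 and H3K9me3 lists held 0 of 39 HOX starts, in PML knockdown and in control where both exist. The background was 13.1% of all genes for PML, 11.0% for LMNB1 in PML knockdown and 12.4% in control, and 8.6% for H3K9me3 in PML knockdown and 10.0% in control. HOX genes of a cluster share their position, so this is a count over 4 places and not over 39. The PML domains came nearest to HOXC, at 538.0 kb, and lay 1245.0 kb from HOXA, 2342.1 kb from HOXD and 2535.3 kb from HOXB. LMNB1 domains lay 460.0 kb from HOXC in PML knockdown and 548.0 kb in control, and 1243.0 kb from HOXA in PML knockdown and 1253.0 kb in control. They lay 2553.3 kb from HOXB in PML knockdown and 2509.3 kb in control, and 3065.1 kb from HOXD in PML knockdown and 2292.1 kb in control. H3K9me3 domains lay 1263.0 kb from HOXA in PML knockdown and 1241.0 kb in control, and 2581.3 kb from HOXB in PML knockdown and 2561.3 kb in control. The bounds of domains follow grids of 9 to 35 kb that differ between lists.

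The nearest H3K9me3 domain of HOXC was not the same in both conditions. A control H3K9me3 domain at 54487001 to 55660000 on chromosome 12, 431.0 kb from the cluster, was overlapped by 0 domains of the PML knockdown list. There the nearest domain was on the other side, at 52185001 to 52885000, 1053.8 kb away. HOXD lay far from any H3K9me3 domain, at 39242.7 kb in PML knockdown and 39058.7 kb in control. The H3K9me3 lists differ in extent, with 281 domains over 361.3 Mb in PML knockdown and 430 over 628.6 Mb in control. The part of that difference in the HOXC result was not tested. The median distance of the 39 starts to a PML domain was 1352.1 kb, against 1269.0 kb for all genes on chromosomes with a PML domain. For LMNB1 it was 1350.1 kb in PML knockdown, against 1734.0 kb for all genes, and 1360.1 kb in control, against 1484.4 kb. For H3K9me3 it was 1370.1 kb in PML knockdown, against 2044.2 kb, and 1348.1 kb in control, against 1278.8 kb. The HOX median was thus the larger in 2 of the 5 lists and the smaller in 3. Members of a cluster share their position, and each of the 5 HOX medians is the distance of HOXA13. The medians thus describe the place of the HOXA cluster and not 39 separate genes.

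**Figure D5:**
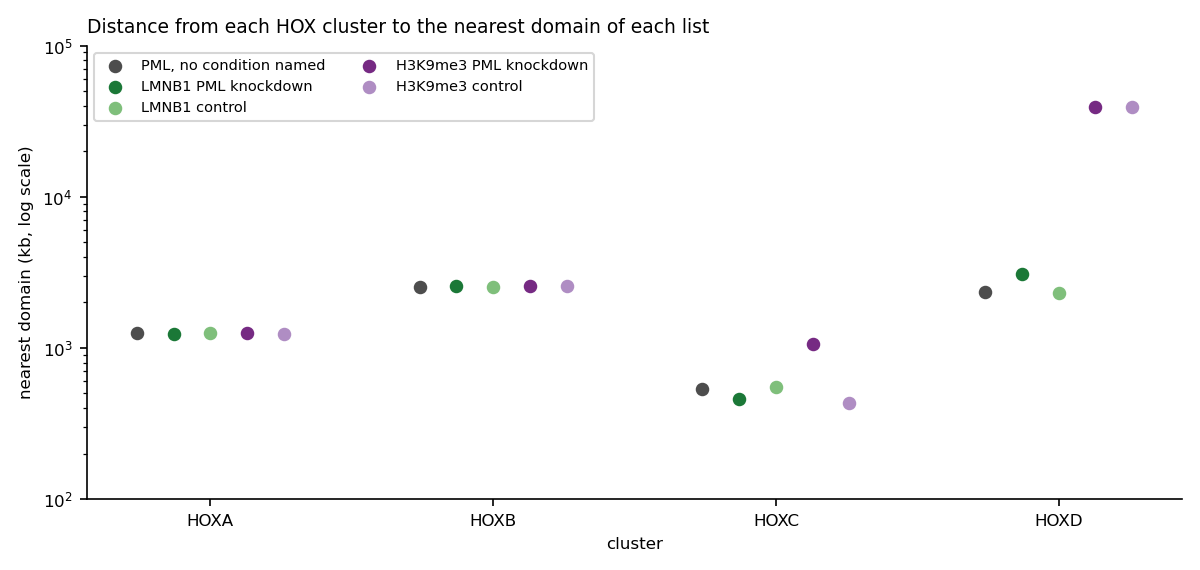
Distance in kb (log scale) from each HOX cluster to the nearest domain of each of the 5 lists, 1 point per cluster and list. HOXC lies nearest in all lists, and its H3K9me3 point moves out in PML knockdown, while HOXD stands far above the rest for H3K9me3 in both conditions (39242.7 kb in PML knockdown, 39058.7 kb in control).

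For scale, the same counts were made in other gene groups. The 53 clustered protocadherins, cell-surface proteins also arranged in tandem, were marked by H3K4me3 at 22.6% of promoters in PML knockdown and 18.9% in control, and by H3K27ac at 5.66% in PML knockdown and 7.55% in control. For 47 SOX, PAX, TBX and sine oculis homeobox genes, developmental transcription factors outside the HOX clusters, the H3K4me3 share was 34.0% in PML knockdown and 31.9% in control. Their H3K27ac share was 19.1% in PML knockdown and 17% in control. HOX genes were the lowest of the 3 for H3K4me3 and between them for H3K27ac. Members of a cluster are not independent, and these differences were not tested.

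A list of 17 protein-coding genes from the regions around the clusters was scored in the same way. Of these, 12 had an H3K4me3 promoter peak in PML knockdown and 12 in control, and 9 had an H3K27ac peak in each. These counts stand beside 63.7% and 61.8% of all promoters for H3K4me3, and 53.7% and 50.8% for H3K27ac, in PML knockdown and control, and are near them. LNPK and MTX2 around HOXD, SKAP2 and HIBADH around HOXA, and CALCOCO1 and CBX5 around HOXC carried both marks in both conditions. EVX1 and EVX2, homeobox genes at the posterior ends of HOXA and HOXD, had no peak at their canonical promoter in any list. The same held for PRAC1, PRAC2 and SKAP1 at HOXB. Of 20 non-coding genes inside the clusters, 3 had an H3K4me3 peak at their canonical start in both conditions. These were HOTTIP, HAGLR and HOXC-AS2, of which HAGLR and HOXC-AS2 also carried H3K27ac. HOTAIR, the HOXC non-coding RNA studied in breast cancer, HOTAIRM1 and the 5 microRNA genes of the miR-10 and miR-196 families had none. The ParaHox genes, close relatives of HOX, had H3K4me3 at 2 of 6 promoters in each condition (GSX1 and GSX2) and H3K27ac at 0 of 6.

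Genes of HOX partners and regulators were scored against the same background of all promoters, 63.7% in PML knockdown and 61.8% in control for H3K4me3, and 53.7% and 50.8% for H3K27ac. Of 9 cofactor genes of the PBX, MEIS and PKNOX families, which bind DNA beside HOX proteins, 8 had H3K4me3 in PML knockdown and 7 in control, and 6 had H3K27ac in each. MEIS3 was marked in the PML knockdown H3K4me3 list only and PKNOX2 in no list. All 12 genes of the Trithorax and MLL complexes and their partners, which act in HOX activation, had an H3K4me3 peak in both conditions. For H3K27ac, 12 of 12 were marked in PML knockdown and 10 of 12 in control, with MLLT3 and MEN1 the genes that differed. All 20 genes of the Polycomb list, which includes the H3K27me3 demethylases KDM6A and KDM6B, had H3K4me3 in both conditions, and 17 had H3K27ac in PML knockdown and 16 in control. RNF2 had an H3K27ac peak in the PML knockdown list only, and CBX2 in the control list only. Retinoic acid induces HOX genes in embryos. Of 14 genes of its pathway, 8 had H3K4me3 in PML knockdown and 7 in control, with CYP26B1 the gene that differed, and 3 had H3K27ac in each (RARB, RXRA and RXRB). The Trithorax and Polycomb lists thus lay above the background for both marks, while the retinoic acid list lay below it, most clearly for H3K27ac; none of this was tested.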

How the data were processed

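Cells were fixed with disuccinimidyl glutarate and formaldehyde, per the labels' protocols. BWA 0.7.12-r1039, Picard 1.104, MACS2 2.2.7.1, deepTools and build hg38 are named, per the submitters' processing notes. The deposited peak lists give each peak a fold enrichment (a ratio), a −log10 q-value and a summit offset, with a lowest −log10 q of 1.3 or 1.31. The deposited domain lists give 1 score per domain, which was not used. Names in the deposited peak lists show 1 call over replicates 1 and 2. No label or header says whether domains were called on pooled libraries. The name marks ct and pml were read as control and PML knockdown, an assumption. Read depth is unknown, so no counting interval can be given.

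Python 3.11.15, numpy 2.4.6, pandas 2.3.3 and matplotlib 3.10.9 were used, with bedtools 2.31.1 as a check. Sequences were cut from hg38 in Python. Overlaps of 1 bp counted. A promoter was in 1 list only when it held no peak of the other list and its own peaks overlapped none. Overlap calls were tested on simulated data. Percentiles rank a member among all promoters marked in both conditions. Named members were the widest and narrowest per cluster, marked, condition-specific and first unmarked members in cluster order; sites between genes were chosen after their values were seen. Members and gene lists were chosen with earlier results of these data known. Inputs and H3K27me3 were not analysed here. Some sequences and named genes are not reported here.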

Additional observations from a re-analysis of the deposited data

How the results depend on the processing

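Of 68 alternative values for peaks, 46 stayed within 1.5 times for a count or were equal for a width or share. The 46 include counts that were 0 as reported and stayed 0, which say little of stability. Equal-sized lists cut the larger list of a mark to the size of the smaller. Both control lists were the smaller, so their own promoter counts and span shares could not change. The 4 domain alternatives gave 0 throughout, which says nothing of stability, since the nearest domain lies 431.0 kb from a cluster. Any annotated start gave 11 H3K4me3 promoters in PML knockdown and 10 in control, and 9 and 10 for H3K27ac. Windows of 500 bp gave 7 H3K4me3 promoters in PML knockdown and 5 in control, and 4 and 5 for H3K27ac. HOXD4 was the member lost, from every list but PML knockdown H3K4me3. Windows of 2500 bp gave 10 H3K4me3 promoters in PML knockdown and 8 in control, 8 H3K27ac promoters in PML knockdown and 9 in control, and 2 H3K4me3 promoters in PML knockdown only (HOXB5 and HOXD8). A −log10 q of at least 5 gave 0 H3K4me3 promoters in PML knockdown only, 1 H3K27ac promoter in PML knockdown only (HOXB5), 0 H3K27ac promoters in control only, 4 H3K27ac promoters in control, and median widths of 3003 bp (H3K4me3, PML knockdown) and 845 bp (H3K27ac, control). Equal-sized lists also gave 0 H3K4me3 promoters in PML knockdown only. These alternatives were run on HOX genes alone, so their counts have no share of all promoters beside them. Joining peaks within 500 bp and counting peak bases within 5 kb each gave 802 bp for H3K27ac in control. The share of the 4 spans in H3K4me3 peaks, 5.76% in PML knockdown and 4.66% in control, became 5.24% and 4.19% with 10 kb added on either side, 5.62% and 4.59% at the stricter q, and 5.56% in PML knockdown with equal-sized lists. The H3K27ac share, 3.20% and 3.15%, became 2.78% and 2.74% with 10 kb added, and 2.37% in control at the stricter q. Of 48 values per cluster, 24 moved. The cause was not tested. No paired analysis was possible because each list covers both replicates, and for the same reason no replicate could be left out. Depth is unknown, so weak peaks in 1 list only (HOXB5, HOXC5) are the least certain calls.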
